A study of Mus musculus with 48 samples.

Results

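The regions described are 10375 of 114043 merged ATAC-seq peaks (9.10%) in mouse small cell lung cancer that hold at least 1 summit called in pooled Ad-CGRP-Cre libraries and no summit called in pooled Ad-CMV-Cre libraries. They are named CGRP-called peaks here. They were chosen by the positions of the called summits of these 2 pools, whatever the mixed pool of both vectors showed. Of the other merged peaks, 75200 held summits of both pools, 25829 a CMV-pool but no CGRP-pool summit, and 2639 a mixed-pool summit alone.

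All mice carried the genotype Trp53-/-;Rb1-/-;p130-/-;R26mG, in which Cre from an adenovirus had removed 3 tumor suppressors and switched on a reporter. The CMV promoter drives Cre in many cell types, and the CGRP promoter in neuroendocrine cells. The CGRP pool joined 14 Ad-CGRP-Cre libraries of preparation batch 2 (7 liver metastases and 7 lung tumors, 1 of them Nfib-amplified). The CMV pool joined 19 Ad-CMV-Cre libraries of batch 1, of which 8 were Nfib-amplified and 15 carry the submitters' mark for low enrichment. The mixed pool joined 11 CMV and 4 CGRP libraries of batch 3, and its CGRP libraries were all lung tumors. One comparison set 8 Nfib-amplified against 7 not amplified Ad-CMV-Cre libraries, here the CMV comparison. Its amplified libraries were 5 liver metastases, 1 lymph node metastasis and 2 lung tumors, and its other libraries were 7 lung tumors. The second set 7 liver metastases against 11 lung tumors with Ad-CGRP-Cre, here the CGRP comparison. Its liver metastases were all of preparation batch 2, and its lung tumors 7 of batch 2 and 4 of batch 3. Tissue and batch can thus not be fully told apart there. Several library titles differ only by a closing A or B, and the labels do not say whether such libraries share a tumor or an animal, so p-values may in part measure technical spread. The description of 1 not amplified library does not list the table of the CMV comparison. Between the CGRP and CMV pools, the vector cannot be told apart from the preparation batch or the labelled sequencing batch, as the pools share neither. In bulk libraries, fewer cells with an open site and less opening per cell cannot be told apart either. The depth of each library is unknown, as the files hold the authors' fitted values alone.

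ATAC-seq reads open chromatin through the insertions of the Tn5 transposase, which cuts where nucleosomes leave DNA free. Open sites are mostly promoters and enhancers, and distal enhancers differ most between cell types. Small cell lung cancer is a neuroendocrine tumor, and CGRP, a peptide encoded by Calca, marks pulmonary neuroendocrine cells, one cell of origin of this tumor. Nfib encodes nuclear factor I/B, a DNA-binding factor that is known from mouse models of this cancer for opening distal chromatin and promoting metastasis.

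The values that chose the peaks were weak to moderate. The highest CGRP-pool summit score in a peak, −log10 of the authors' q-value, ran from 1.31 to 862.7 with a median of 17.4. The median lay at percentile 43.1 of the 172434 summits of the CGRP pool. A score under 2, close to the lowest in the list, 1.3, was held by 137 peaks (1.32%), and 606 (5.84%) reached 100. The nearest CMV-pool summit lay a median of 2338 bp from the peak centre (quartiles 1022 and 4991 bp). For 438 peaks it lay within 500 bp, just beyond the edge of the peak, and for 1038 (10%) it was over 10 kb away. The 177 peaks just inside the rule, with a CMV-pool summit over 250 to 300 bp from the centre, had a median mean normalised count of 17.6 and a median log2 fold change of 0.23 in the CMV comparison. The 424 just outside, with summits of both pools and the CMV one over 200 to 250 bp off, had 20.4 and 0.28.

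CGRP-called peaks were spread over the whole set of chromosomes. Their share of a chromosome's merged peaks ran from 6.62% on chromosome 18 to 10.6% on chromosome 7 among the autosomes, and was 6.14% on chromosome X. Chromosome 2 held the most (904), followed by chromosome 1 (777) and chromosome 5 (698). Of 1973 windows of 1 Mb with any merged peak, 1718 held at least 1 CGRP-called peak, and a window with any held a median of 5. Among the 1865 windows with at least 10 merged peaks, none had over 30% of CGRP-called peaks and 172 had none.

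CGRP-called peaks mostly stood one at a time among peaks of other classes. The nearest merged peak of any class was a median of 2772 bp away, against 4323 bp for all other merged peaks, and 84.9% had one within 10 kb, against 75.6%. The nearest CGRP-called peak was a median of 36714 bp away. After a CGRP-called peak, the next merged peak along the chromosome was also one in 10.6% of cases, against 8.95% after another peak. With peaks of a group at most 12498 bp apart, 7796 (75.1%) were alone, 1888 stood in pairs and 691 in 207 groups of 3 or more.

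The largest groups differed in how evenly their peaks changed. On chr2:32722847-32773522 (mm9), 7 CGRP-called peaks stood among 16 merged peaks. In the authors' deposited table for the CMV comparison their log2 fold changes, amplified over not amplified, were -1.33, -1.72, -2.62, -2.56, -1.89, -1.21 and -3.72 along the chromosome, with SEs from 0.36 to 0.75. The change passed the threshold, at 0.05 on the adjusted p of the authors' deposited table, in the last 6 of the 7. The 9 merged peaks of other classes between them had a median of -0.50, and 3 of those fell. On chr18:60882724-60923881, 5 of 7 fell, with values from -3.05 to -0.54 for the group in the authors' deposited table, while the 6 other peaks between them had a median of 0.18. That group was the only one of the 5 largest with more than 1 loss in the CGRP comparison, at -1.31 (SE 0.26, adjusted p = 0.0005108) and -1.36 (SE 0.33, adjusted p = 0.009389) by the authors' deposited table.

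The other large groups were less even. The third group of 7, on chr15:79988418-80011320, held 2 losses, at both ends of the group, and 5 peaks past no threshold. On chr13:107784726-107805229, 6 CGRP-called peaks followed each other with no merged peak of another class between them, the longest such run. It held 2 losses (-2.71 and -2.60) and 1 gain (1.48) with amplification by the authors' deposited table, and the gain lay 10.2 kb from the nearer loss. The stretch at chr3:136339909-136367915 had 3 losses among 6.

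A further 2 runs had 5 CGRP-called peaks in a row, and 13 had 4. The stretch at chr9:30928013-30938182 held 5 peaks within 10.2 kb, with log2 fold changes of -0.83, -2.56, -4.53, -1.18 and -1.64 with amplification by the authors' deposited table, and the change passed the threshold in those with -2.56, -4.53 and -1.64. The stretch at chr14:121615223-121639070 had 3 losses among 5, up to -4.07 (SE 0.72) in the authors' deposited table. Among the runs of 4, the first by position, on chr1:174166998-174209329, held 1 loss, and the next, on chr1:187032075-187051924, held 4 losses, from -4.07 to -2.14 in the authors' deposited table.

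The megabases with the most CGRP-called peaks were also rich in merged peaks. Chromosome 4 from 150 to 151 Mb held 24 among 96 merged peaks, with 9 losses and 0 gains in the CMV comparison, and 27 of its 72 other merged peaks were losses too. Chromosome 10 had 23 among 150 from 79 to 80 Mb, with 13 losses, and 22 among 142 from 80 to 81 Mb, with 12 losses, and no gain in either. In those windows 59 of 127 and 60 of 120 other merged peaks were losses, with medians of -0.68 and -0.64. Chromosome 7 from 103 to 104 Mb was the exception among the 5: of its 22 CGRP-called peaks, 2 fell and 4 rose, and of its 103 other merged peaks 3 fell and 55 rose. The fifth, chromosome 4 from 149 to 150 Mb, had 7 losses and 1 gain among 22, and 19 losses and 18 gains among its 111 other merged peaks.

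By share, the leading windows held fewer peaks. Chromosome 1 from 7 to 8 Mb had 6 CGRP-called among 20 merged peaks (30%), with 0 losses and 1 gain, and 0 losses and 6 gains among the 14 others. Chromosome 14 from 59 to 60 Mb had 5 among 17 (29.4%), and all 5 fell, with log2 fold changes from -3.35 to -2.12, while the 12 other merged peaks had 3 losses, 2 gains and a median of 0.23. Chromosome 15 from 80 to 81 Mb had 7 losses and 0 gains among 16 CGRP-called peaks, against 7 losses and 6 gains among 41 others. Chromosome 13 from 24 to 25 Mb had 6 losses and 2 gains among 21, against 4 losses and 15 gains among 58 others. Chromosome 8 from 15 to 16 Mb had 2 losses and 1 gain among 10, against 4 losses and 7 gains among 28 others.

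CGRP-called peaks were weak. Their mean normalised count, which the authors averaged over libraries, had a median of 12 (quartiles 7.41 and 19.5), against 21.2 (11 and 46.5) over all merged peaks. Peaks with a CMV-pool but no CGRP-pool summit were also weak, at 10.5, and peaks with summits of both pools had 32.4. In the second-lowest decile of mean count 18.5% of merged peaks were CGRP-called, and in the highest decile 0.307%, or 35 peaks.

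The strongest CGRP-called peaks lay beside a CMV-pool summit. Of the 35 in the highest decile, 94.3% had one within 1000 bp of the centre and 11 within 500 bp, against 16.3% and 3.08% in the lowest decile. The positions of CMV-pool summits chose the peaks, so these distances are a description. The highest mean count, 242.3, was on chr16:64852034-64852534, with a CMV-pool summit 596 bp away. Next came chr5:72049188-72049688 (211.1, CMV-pool summit at 262 bp), chr9:21350246-21350746 (185.2, at 608 bp), chr11:113076292-113076792 (184.8, at 276 bp) and chr9:107612356-107612856 (178.4, at 290 bp). The 5 highest CGRP-pool scores, from 516.7 to 862.7, were also on peaks with a CMV-pool summit within 361 bp.

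Of these 8 leading peaks, 4 passed the threshold in the CMV comparison, all as losses. The peak on chromosome 16 had -0.09 on the log2 scale (SE 0.20, adjusted p = 0.7254) and the one on chromosome 11 had -0.04 (SE 0.37, adjusted p = 0.9321) by the authors' deposited table. Losses passed the threshold on chromosome 9, at -0.89 (SE 0.22) for the peak starting at 21350246 and -0.69 (SE 0.18) for the one starting at 107612356 in the authors' deposited table. On chromosome 5 the value was -1.0 (SE 0.44, adjusted p = 0.04915) by the authors' deposited table. The remaining 3 of the 5 highest scores were on chr6:134213164-134213664 (-1.16, SE 0.31, adjusted p = 0.0008056), chr11:33851623-33852123 (-0.53, SE 0.39) and chr7:119863570-119864070 (-0.29, SE 0.19) in the authors' deposited table, and the last 2 did not pass.

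The mixed pool had a summit in 8088 CGRP-called peaks (78.0%). Its summits were not part of the rule, but 4025 of these peaks were centred by the authors on one and so hold it by construction. Of the 6350 centred on a CGRP-pool summit, 4063 (64.0%) held one. Among peaks with a CMV-pool but no CGRP-pool summit it had one in 67.5%, and among peaks with both in 98.2%. Within deciles of mean count its share among CGRP-called peaks was 46.5% in the lowest, against 42.1% of all merged peaks there, and 87.5% in the sixth, against 96.7%. Peaks with a mixed-pool summit had a higher median CGRP-pool score (22.8) than those without (7.57) and a higher median mean count (13.3 against 7.35).

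In the CMV comparison, more CGRP-called peaks were lost than gained with Nfib amplification, and most, 6570, passed the threshold in neither direction. Of the 10259 tested, 3254 (31.7%) lost accessibility in Nfib-amplified libraries, against 12.2% of all 113873 peaks tested, and 435 (4.24%) were more accessible, against 34.3%. CGRP-called peaks were 9.01% of the peaks tested, 23.4% of the losses and 1.11% of the gains. Their losses had a median of -2.19 on the log2 scale (median SE 0.61), 4.56-fold lower in amplified libraries, and their gains 1.94 (median SE 0.65), 3.85-fold higher. The median over CGRP-called peaks was -0.72 (quartiles -1.70 and 0.14), and over all tested peaks 0.60, and relative to that of all tested peaks it stood at -1.33. With every value centred on the median of all tested peaks, 4933 CGRP-called peaks were lower and 123 higher, against 25.6% and 19.9% of all tested peaks. The pools that chose the peaks share libraries with this comparison: 2 amplified and 2 not amplified libraries are in the CMV pool, so these shares are not independent of the choice. All 8 amplified libraries carry the submitters' hyperaccessible label and 6 of them are metastases, while all 7 others are lung tumors without that label, so amplification and tissue cannot be fully told apart.

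**Figure D1:**
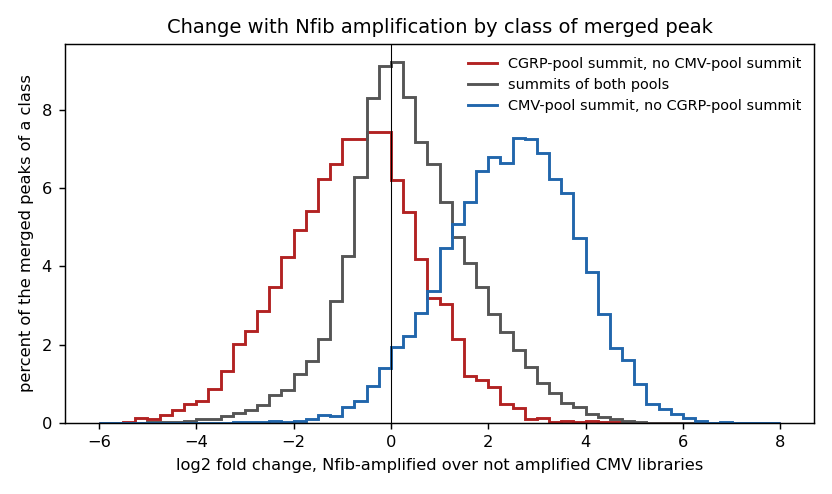
Distribution of the deposited log2 fold change, Nfib-amplified over not amplified CMV libraries (x axis, bins of 0.25), as percent of the merged peaks of each class (y axis). CGRP-called peaks (red) have a median of -0.72, peaks with summits of both pools (grey) 0.30, and peaks with a CMV-pool but no CGRP-pool summit (blue) 2.53.

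The mirror class moved the other way. Of peaks with a CMV-pool but no CGRP-pool summit, 0.345% were less accessible in amplified libraries and 65.1% more accessible. Peaks with summits of both pools lay between, at 13.8% and 27.8%. Of the 19 libraries of the CMV pool 8 were Nfib-amplified, and of the 14 of the CGRP pool 1 was. The shares of these classes are therefore not independent of how the classes were chosen.

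The excess of losses was also there at like mean count. With the rates of all peaks of the same decile of mean count, 8.14% of CGRP-called peaks would have been losses, against the 31.7% found, and 34.6% gains, against 4.24%. The loss share exceeded that of all merged peaks in each of the 10 deciles and the gain share was below it in each. Losses were 7.98% of CGRP-called peaks in the lowest decile, against 2.03% of all, and 54.4% in the seventh, against 15.4%. In the highest decile the shares were 34.3% and 23.9%. The mean count includes libraries of this comparison, so the deciles are not independent of the change.

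**Figure D2:**
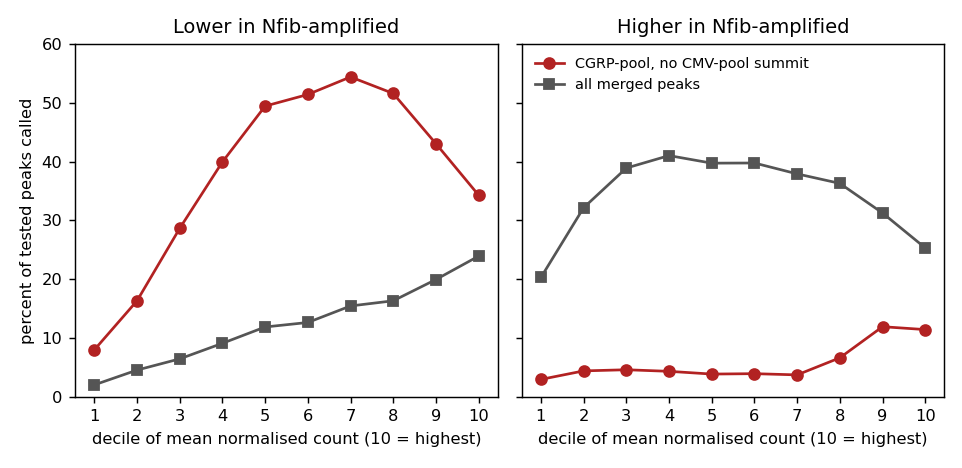
Percent of tested peaks with an adjusted p under 0.05 (y axis), lower (left) or higher (right) in Nfib-amplified CMV libraries, by decile of mean normalised count over all merged peaks (x axis). CGRP-called peaks (red circles) are above all merged peaks (grey squares) for losses and below them for gains in each decile.

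Within the CGRP-called peaks, losses went with the strength of the CGRP-pool summit. Among the 2594 peaks with the lowest scores, 11.3% fell and 8.09% rose with amplification. Among the 2588 with the highest, 59.9% fell and 1.24% rose, and the median log2 fold change was -1.60. Stronger summits also had higher mean counts, with medians of 20.2 among the highest and 6.90 among the lowest. Within deciles of mean count the gap varied. In the lowest decile 11.2% of peaks with a score above the CGRP-called median fell, against 7.73% of those at or below it, and in the sixth 60.2%, against 25%. The highest decile held no CGRP-called peak at or below the median score. The score took part in choosing the peaks, so these shares are a description.

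The shares are given by distance from the CMV-pool summits as a description, since those positions chose the peaks and that pool holds 4 libraries of this comparison. Where the nearest one lay 250 to 500 bp from the centre, 16.9% fell and 14.2% rose, with a median log2 fold change of -0.01. From 500 to 1000 bp 25% fell, and beyond that the share was 35.4% up to 2.5 kb, 33.5% up to 10 kb and 34.8% farther away. A mixed-pool summit was a further mark: 36.7% of CGRP-called peaks with one fell, against 13.1% of those without. The mixed pool holds 11 libraries of the CMV comparison, 6 of them amplified and 5 not.

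**Figure D3:**
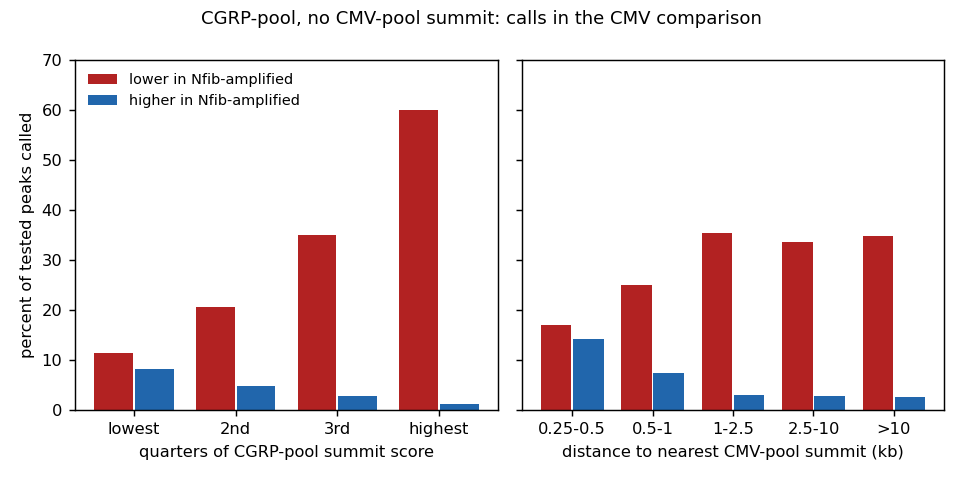
Percent of tested CGRP-called peaks (y axis) lower (red) or higher (blue) in Nfib-amplified CMV libraries at an adjusted p under 0.05, by quartile group of the CGRP-pool summit score (left) and by distance from the peak centre to the nearest CMV-pool summit in kb (right). Losses run from 11.3% to 59.9% from the lowest to the highest scores and gains from 8.09% down to 1.24%.

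The excess of losses was found on each of the 19 autosomes. The loss share among CGRP-called peaks ran from 24.0% on chromosome 19, with 25 such peaks, to 37.7% on chromosome 5. It was above that of all merged peaks of the same chromosome in 19 of 19. All chromosomes share the same libraries and the same rule, so these 19 are not independent repeats. Chromosome 11 followed at 36.7% and had the lowest median, at -1.07. Chromosome 18 had a loss share of 27.2% against 6.31% of all its merged peaks. Across the 19 autosomes the medians of CGRP-called and of all merged peaks went together (Pearson's r = 0.861), and both sets share the libraries of the fit. Chromosome X held 51 CGRP-called peaks, of which 4 fell and 4 rose, each 8% of those tested. Of all its tested merged peaks 3.14% fell and 46.1% rose.

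**Figure D4:**
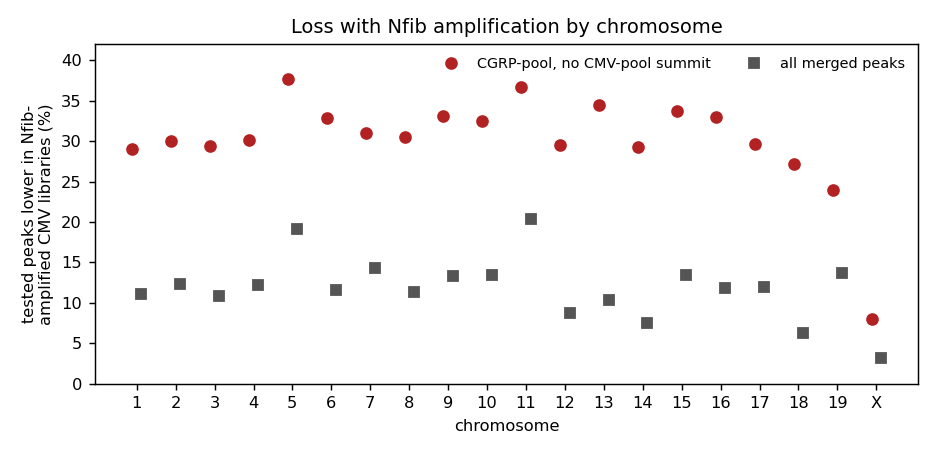
Percent of tested peaks less accessible in Nfib-amplified CMV libraries at an adjusted p under 0.05 (y axis), by chromosome (x axis), for CGRP-called peaks (red circles) and all merged peaks (grey squares). The red circles lie between 24.0% and 37.7% on the autosomes and at 8% on chromosome X, above the grey squares throughout.

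Neighboring peaks of other classes went the same way in part. Beside 2724 lost CGRP-called peaks with a peak of another class within 10 kb, 25.3% of those nearest neighbors were lost as well and 20% were gained. The median log2 fold change of these neighbors was -0.09, and over all merged peaks of other classes it was 0.75. The CGRP-called peaks themselves had -2.12, but they were picked here as losses and their neighbors were not. Beside 376 gained CGRP-called peaks, 68.4% of the neighbors were gained and 1.33% lost. Over all tested merged peaks of other classes, 10.3% were lost and 37.3% gained. Beside 5396 CGRP-called peaks that passed in neither direction, 11.1% of the neighbors were lost and 34.6% gained, with a median of 0.45. Over 8557 such pairs the log2 fold changes had Pearson's r = 0.314, described across sites of the same libraries. Between CGRP-called peaks at most 12498 bp apart there were 1428 steps. Both peaks fell in 270 of them, only 1 of the 2 in 528 and neither in 630. In 9 of the 528 the other peak rose. No such counts are given for neighboring pairs of all merged peaks. Whether CGRP-called peaks fell together more often than such pairs was not tested.

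Among CGRP-called peaks with a mean count at or above the median of tested peaks (21.2), which were 2189 (21.1%), 1126 fell and 108 rose with amplification. Of all merged peaks, 12.6% fell in the sixth decile of mean count, rising to 23.9% in the highest. The share that rose went from 39.8% down to 25.3%. The largest loss among these CGRP-called peaks was on chr10:84047402-84047902. The log2 fold change there was -5.18 ± 0.67 (SE) at a mean count of 22.5 and an adjusted p of 6.523e-12 in the authors' deposited table. That site was less accessible in CGRP liver metastases too, at -1.94 (SE 0.44, adjusted p = 0.003442) by the authors' deposited table, and the values differed by -3.24 (adjusted p of the difference 0.001084). The peak at chr16:55816366-55816866 followed at -5.15 (SE 0.76) and chr11:72307741-72308241 at -5.09 (SE 0.73) in the authors' deposited table. The chromosome 11 site opened a run of 4 CGRP-called peaks over 42.9 kb, singled out after its values were seen, in which the others had -3.88, -3.02 and -2.61 in the authors' deposited table, and all 4 passed.

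The remaining 3 leading losses were as large. The peak at chr11:53782791-53783291 had -5.07 (SE 0.69) and chr13:114381515-114382015 had -5.02 (SE 0.85) in the authors' deposited table. The strongest by CGRP-pool score (251.4) was on chr9:105313865-105314365, with -4.99 (SE 0.72, adjusted p = 1.018e-09) by the authors' deposited table and 0.44 (SE 0.56, adjusted p = 0.8755) in the CGRP comparison. The difference there was -5.44 (adjusted p = 1.116e-06), the widest of the 6. The nearest CMV-pool summit lay 1873 to 16432 bp away from these 6 sites, and all 6 held a mixed-pool summit.

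The leading gains had weak CGRP-pool summits, with scores from 2.46 to 14. On chr16:87128486-87128986 the log2 fold change was 4.40 (SE 0.94, adjusted p = 3.799e-05) by the authors' deposited table, with a CGRP-pool score of 2.46 and a mixed-pool score of 42.1, each ranked in its own list. The peak at chr5:21189580-21190080 had 3.74 (SE 0.99) and the highest mean count of the 6 gains, 56.3, in the authors' deposited table. Its value in the CGRP comparison was -0.99 (SE 1.04), and the difference of 4.72 passed (adjusted p = 0.009349). The peak at chr1:7309378-7309878 had 3.37 (SE 0.94), chr17:89105584-89106084 had 3.17 (SE 0.86) and chr8:15811901-15812401 had 3.13 (SE 0.89) in the authors' deposited table. The sixth, on chr2:159543773-159544273, had 2.88 (SE 0.52, adjusted p = 1.262e-06) by the authors' deposited table, with a CMV-pool summit 274 bp from its centre.

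In the CGRP comparison, 172 CGRP-called peaks of the 9077 tested (1.89%) lost accessibility in liver metastases, against 0.779% of all peaks tested, and 6 (0.0661%) were more accessible, against 0.0752%. The gain share is close to the background. Losses had a median of -2.01 on the log2 scale (median SE 0.49), 4.03-fold lower in liver metastases. At the decile rates of all merged peaks 0.574% would have been losses. Over all CGRP-called peaks the median was -0.14, and 58.1% of values were below 0, against 48.9% over all merged peaks. An adjusted p was missing for 1298, and these were left out. The 14 libraries of the CGRP pool are all in this comparison. At a CGRP-called peak of median SE (0.59), a log2 fold change under about 1.15 had an interval that includes 0 without any adjustment, and of the 10259 with a p, 1133 (11%) were lower and 240 (2.34%) higher at an unadjusted p under 0.05, against 6.25% and 3.37% of all peaks.

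A mixed-pool summit was held by 167 of the 172 CGRP-called CGRP losses, against 78.0% of all CGRP-called peaks. Over all merged peaks it was held by 804 of the 819 CGRP losses, against 89.5% of all merged peaks. CGRP-called peaks with a mixed-pool summit had a median log2 fold change, liver over lung, of -0.23, and those without one 0.20. The 4 CGRP libraries of the mixed pool are all lung tumors of this comparison. These medians, and the shares with such a summit, are therefore not independent of the comparison. The loss share was 0.801% among the lowest and 2.46% among the highest CGRP-pool scores. Chromosome 12 held 16 of these losses among 60 over all its merged peaks, chromosome 10 held 15 among 65, and chromosome 2, with the most CGRP-called peaks, held 14 among 51.

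The largest CGRP losses at or above the median mean count were all shared with the CMV comparison. The peak at chr1:51571057-51571557 had -4.22 (SE 0.53, adjusted p = 7.711e-11) in liver metastases and -2.68 (SE 0.50) in amplified CMV libraries in the authors' deposited table. The peak at chr7:74257373-74257873 had -3.80 (SE 0.70) and -2.87 (SE 0.73), and chr4:50037829-50038329 had -3.53 (SE 0.67) and -2.70 (SE 0.68) in the authors' deposited table. The order was the other way on chr5:106137975-106138475, at -3.14 (SE 0.61) in liver metastases and -4.40 (SE 0.70) in amplified CMV libraries in the authors' deposited table. The peak at chr12:36223327-36223827 had -2.79 and -3.33, and chr16:8703710-8704210 had -2.76 and -2.39 in the authors' deposited table. The difference between the comparisons passed the threshold at none of these 6 sites, with the lowest adjusted p at 0.1081.

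The 6 gains in CGRP liver metastases were on chromosomes 7, 5, 5, 17, 16 and 2. Only chr16:51047951-51048451 had a mean count (45.8) above the median of tested peaks, with 2.23 (SE 0.57, adjusted p = 0.02) in liver metastases and 2.07 (SE 0.60, adjusted p = 0.002654) with Nfib amplification, both from the authors' deposited table. The opposite directions met at chr5:110447400-110447900, with 2.96 (SE 0.80, adjusted p = 0.03297) in liver metastases and -2.76 (SE 0.84, adjusted p = 0.00377) in amplified CMV libraries in the authors' deposited table, a difference of -5.72 (adjusted p = 6.141e-05). The largest, on chr7:104018914-104019414, had 3.58 (SE 1.01, adjusted p = 0.04903) at a mean count of 6.74 in the authors' deposited table. The other 3 had values from 2.16 to 2.56.

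Set side by side, losses of both comparisons met at many CGRP-called peaks. Of their 172 CGRP losses, 135 (78.5%) were also CMV losses and 1 was a CMV gain. Of the 647 CGRP losses in other merged peaks, 248 (38.3%) were CMV losses and 82 (12.7%) CMV gains. The shares start from unlike bases: 31.7% of all tested CGRP-called peaks were CMV losses, against 10.3% of the other tested merged peaks. CMV gains were 4.24% and 37.3%. Seen from the CMV side, 135 of 3174 CGRP-called CMV losses with an adjusted p in both (4.25%) were lost in liver metastases. Over all CMV losses the share was 2.78%. Here too the bases differ, with 1.89% of all tested CGRP-called peaks and 0.779% of all tested merged peaks lost in liver metastases. The groups compared share no library, and across the 10375 peaks the log2 fold changes had Pearson's r = 0.339, against 0.153 over all merged peaks, a description over sites that share libraries within each comparison. Whether the overlap is particular to CGRP-called peaks was not tested.

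The change itself differed between the comparisons at 1495 CGRP-called peaks by a two-sided z test with Benjamini-Hochberg adjustment over all peaks. At 1330 of them (13% of those tested, against 5.62% of all peaks) the CMV value was the lower one, and at 165 (1.61%, against 17.8%) the higher one. Of the 1330, 1288 were CMV losses, as were 5969 of the 6401 such peaks among all merged peaks. Over the 1330 the median log2 fold changes were -2.70 in the CMV and -0.09 in the CGRP comparison. Over the 6401 they were -1.74 and 0.07. Both sets were picked for a CMV value below the CGRP value, so these counts and medians are a description.

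**Figure D5:**
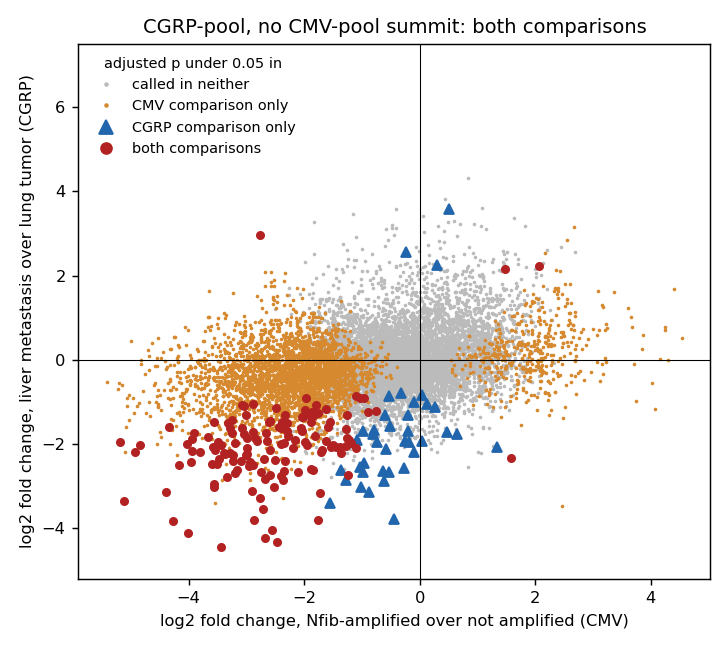
Log2 fold change of each CGRP-called peak in the CMV comparison, amplified over not amplified (x axis), and in the CGRP comparison, liver metastasis over lung tumor (y axis). Points are orange where the CMV change alone passed an adjusted p of 0.05, blue triangles where the CGRP change alone did, red where both did and grey otherwise. Most of the 172 CGRP losses lie in the lower left, where 135 are red.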

How the data were processed

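Per the submitters' processing notes Bowtie2, MACS2, DESeq2 and build mm9 were used, with no versions or roles. Each summit list comes from pooled libraries, per the labels. Its deposited score starts at 1.3, as −log10 of a q-value of 0.05 does, and was taken as that. The authors deposited merged peaks of equal width, by a filter not given in the sources. They also deposited a mean normalised count, a signal identical in both tables, with log2 fold changes and SEs, a Wald score for each test, and p-values. The directions, amplified over not amplified and liver over lung, rest on the table names.

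A peak was CGRP-called when it contained a CGRP-pool summit and no CMV-pool summit. Changes were called at the authors' deposited adjusted p under 0.05, and no count model was fitted, since 0 columns hold values of single libraries. The difference of the log2 fold changes was tested by z (two-sided, squared SEs added) with p-values adjusted by Benjamini-Hochberg over all peaks, and checked on simulated data. Peaks lacking an adjusted p were left out of counts. The peaks and settings were chosen with earlier results of these data known. Sites named are, in each comparison and direction, the 6 largest called changes at or above the median mean count. Then come the 5 highest mean counts, scores, windows (by number and by share), groups (steps up to 12500 bp) and runs (gaps up to 50 kb). Ties were broken by chromosome name and position. Coordinates are mm9, 1-based. The annotation used here was of another build, so no gene was assigned and no sequence read. Scripts ran under Python 3.11.15 with pandas 2.3.3, numpy 2.4.6 and scipy 1.17.1, and figures used matplotlib 3.10.9.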

Additional observations from a re-analysis of the deposited data

How the results depend on the processing

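The alternatives covered 10 settings, and 33 of 53 recomputed counts stayed within 1.5 times the value reported. In all settings losses of CGRP-called peaks outnumbered their gains in both comparisons. Over all merged peaks in the main setting, CGRP losses also outnumbered CGRP gains (819 against 79). CMV gains outnumbered CMV losses there (39032 against 13936). Except for the centred CMV counts, no shares over all merged peaks are given for the other settings, so the counts below describe CGRP-called peaks alone. At an adjusted p under 0.01 there were 203 gains in the CMV comparison, 79 losses and 0 gains in the CGRP comparison and 674 differing peaks. Under 0.1 there were 13 CGRP gains. The authors' other deposited test, for changes beyond 0.5 on the log2 scale, called 1788 CMV losses and 110 CMV gains, and 16 CGRP losses and 0 CGRP gains. With a mean count of at least 20, which leaves 2467 peaks, there were 1280 CMV losses, 111 CMV gains, 84 CGRP losses, 2 CGRP gains, 625 differing peaks and 2182 with a mixed-pool summit. Centring on the median of all peaks gave 4933 CMV losses, 123 CMV gains and 2674 differing peaks. Without peaks that have a CMV-pool summit within 1000 bp, 218 CMV gains were left of 435, and with a CGRP-pool score of at least 10, 186. Fewer peaks enter under the last 2 settings and the mean count minimum; for the other settings the cause was not tested. Own adjustment and leaving out chromosome X or chromosome 2, which held the most peaks, moved none of these counts by over 1.5 times. Leaving out libraries was not run and no paired analysis was possible because the files used hold no value per library, so the part of any 1 library, of the low-enrichment libraries or of a batch was not tested.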

Other observations

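Of the CGRP-called peaks, 279 held more than 1 CGRP-pool summit. The 270 with 2 summits had a lower median mean count (8.61) than the 10096 with 1 summit (12.1), and 18.7% of them were CMV losses, against 32.1%. A CGRP-pool summit from a call with several summits, by the letter that ends its name, was found in 1700 CGRP-called peaks (16.4%), against 22.0% of the peaks with summits of both pools. By the summit at their centre, 4025 CGRP-called peaks were centred on a mixed-pool summit and 6350 on a CGRP-pool summit, and 36.9% and 28.4% of them were CMV losses. Chromosome Y and unplaced sequences held 12 CGRP-called peaks among 99 merged peaks.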
